A study of Bos taurus with 27 samples.

Results

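Transcripts of 9 polyadenylated histone variant genes were measured in pools of bovine blastocysts produced in vitro. The genes were *H3-3A* and *H3-3B*, which both encode histone H3.3, *H2AZ1* and *H2AZ2* for H2A.Z, *H2AX*, *H2AJ*, *MACROH2A1* and *MACROH2A2* for macroH2A, and *CENPA* for the centromeric histone CENP-A. They were taken by symbol, and all 9 were present among the 32637 genes of the count table. Each of the 27 pools held RNA of 2 expanding or expanded blastocysts, all given a stage score of 7 and a quality score of 1. In the study, the oocytes had matured in medium with fluid from preovulatory follicles that were of either greater or lesser maturity, and fertilization and embryo culture were then the same for all. The labels state neither the treatment nor the IVF replicate of a pool, so no comparison of treatments was made, and every value below describes the 27 pools as a single set. The 2 blastocysts of a pool shared a treatment and an IVF replicate, so a pool is a mixture of 2 embryos, and pools of the same replicate may be more alike than others.

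The bulk of chromatin is packed on histones whose genes are read mainly while DNA is copied and whose mRNA ends in a stem-loop instead of a poly(A) tail. Variant histones are made outside S phase as well, mostly from polyadenylated mRNA (*H2AX* gives both kinds), and are placed on DNA by dedicated chaperones and remodelling complexes. H3.3 is deposited at active genes, and also at telomeres and pericentric repeats, H2A.Z flanks transcription start sites, phosphorylated H2AX marks DNA breaks, macroH2A is known from silenced chromatin such as the inactive X chromosome, and CENP-A defines the centromere. In the early embryo, H3.3 and H2A.Z are known for their part in rebuilding chromatin after fertilization. Because the library kit copied RNA from the poly(A) tail, polyadenylated mRNA of these variants was well suited to measurement. Any mRNA ending in a stem-loop, including that of *H2AX*, would be largely missed.

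Pools held between 10517606 and 44253564 counts on genes (median 22293594), so that 3 counts equalled between 0.0678 and 0.285 CPM (counts scaled so that those of each pool sum to 1e6). A gene was retained when it had at least 1 CPM in 12 pools, as 12310 genes did. Keratin genes *KRT8* (median 18607 CPM) and *KRT18* (7937 CPM) led the trophectoderm markers, *POU5F1* (399 CPM) and *DPPA3* (280 CPM) the epiblast markers, and *APOA1* (735 CPM) and *GATA6* (211 CPM) the hypoblast markers. Retained were 10 of 10 trophectoderm, 8 of 10 epiblast and 7 of 10 hypoblast markers, so markers listed for each blastocyst lineage were detected. Summed markers of cells that should be absent were low. They reached at most 79.7 CPM for cumulus and granulosa cells, led by *CYP11A1* (14.9 CPM) and *STAR* (11.3 CPM), with 5 of 10 markers retained and *FOXL2* at 0 in 26 pools. They reached at most 54.9 CPM for leukocytes, led by *TYROBP* (7.94 CPM) and *LCP1* (3.63 CPM), with 6 of 12 retained, and at most 160 CPM for the oocyte, led by *OOEP* (30.4 CPM) and *ZP3* (19.6 CPM), with 8 of 10 retained. Because each library came from whole embryos, fewer cells of a type and less RNA per cell cannot be told apart in any value that follows.

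All 9 histone variants were retained, and each had at least 1 CPM in all 27 pools. Their sum ran from 3069 to 5441 CPM (median 4374), or between 0.307% and 0.544% of the counts of a pool. The median retained gene had 14.4 CPM, and 8 of the 9 variants exceeded it. Values are in CPM and were not divided by transcript length, since reads came from the 3′ end and exon lengths were not used here, so the order of the genes is an order of read abundance.

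**Figure D1:**
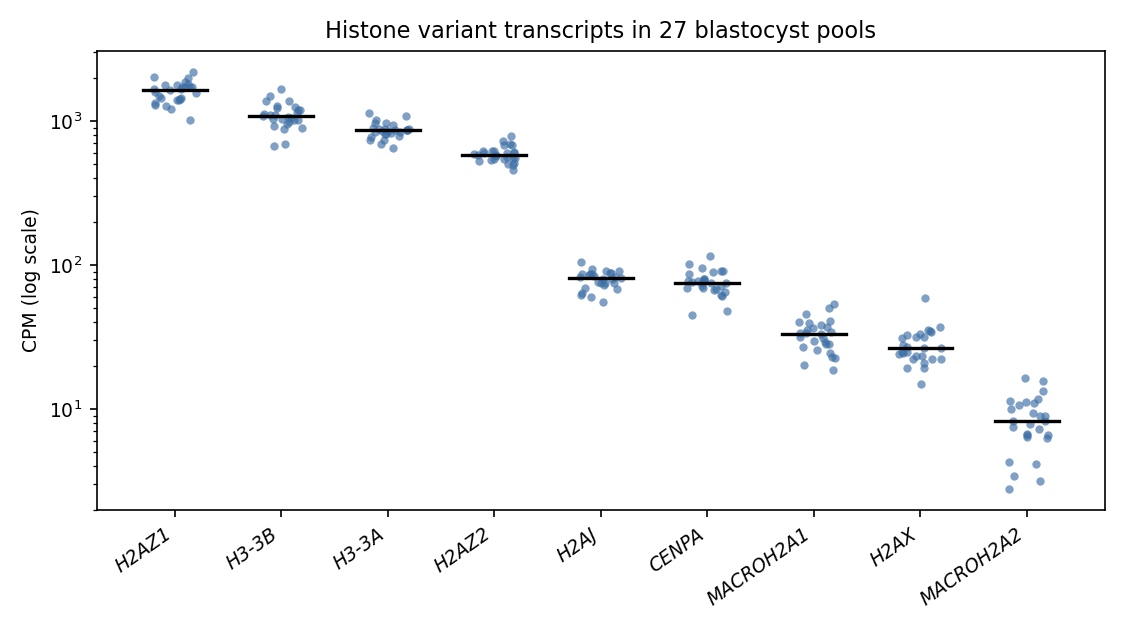
Abundance of the 9 histone variants, in CPM on a log scale, with 1 point per pool (27 per gene) and a bar at the median. The 4 genes for H3.3 and H2A.Z, with medians from 582 to 1654 CPM, sit above every point of the other 5 genes, whose medians run from 8.21 to 81.7 CPM.

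H3.3 is encoded by a pair of genes that make the same protein. *H3-3B*, on chromosome 19 from 55821418 to 55823783 (ARS-UCD2.0), ranged from 676 CPM in pool 31 to 1665 CPM in pool 21, with a median of 1081 CPM. *H3-3A*, on chromosome 16 from 29079663 to 29087863, ranged from 645 CPM in pool 31 to 1132 CPM in pool 13, with a median of 864 CPM. The ranges overlapped, but within pools *H3-3B* was the higher in 26 of 27, by a median ratio of 1.26 (range 0.891 to 2.01). *H3-3A* varied little. Its interquartile range was 0.14 on the log2 scale, against 0.52 for the median retained gene, and only 0.341% of retained genes had a narrower one. Among the 353 genes within 2-fold of its median CPM, 3.97% had a narrower interquartile range. For *H3-3B* the interquartile range was 0.27, and 10.3% of retained genes were narrower. Among the 260 genes within 2-fold of its median CPM, 55.8% were narrower, so *H3-3B* was not unusually steady for its abundance.

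H2A.Z also comes from a pair of genes, whose proteins differ slightly. *H2AZ1*, on chromosome 6 from 24737271 to 24739542, was the most abundant of the 9 variants, from 1020 CPM in pool 31 up to 2202 CPM in pool 21 around a median of 1654 CPM. Its median exceeded that of 99.5% of retained genes. *H2AZ2*, on chromosome 4 from 76689382 to 76701177, ranged from 460 CPM in pool 14 to 781 CPM in pool 32, with a median of 582 CPM. *H2AZ1* exceeded *H3-3B* in 26 of 27 pools, and *H3-3A* exceeded *H2AZ2* in all 27 by a ratio of 1.25 to 1.62, so the order of these 4 genes was nearly the same in every pool. *H2AZ2* was, after *H3-3A*, the steadiest variant, with an interquartile range of 0.18 that was narrower in only 1.56% of retained genes. Among the 576 genes within 2-fold of its median CPM, 13.2% had a narrower one.

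A clear step followed. The lowest *H2AZ2* value exceeded the highest value of *H2AJ*, and within pools *H2AZ2* was 5.15 to 10.8 times as abundant. *H2AJ*, an H2A variant gene on chromosome 5 from 95136650 to 95137326, ranged from 55.0 CPM in pool 42 to 105 CPM in pool 9, with a median of 81.7 CPM. It lies within the span of *GUCY2C*, which had at most 4.38 CPM. *CENPA*, on chromosome 11 from 72791048 to 72798612, ranged from 45.3 CPM in pool 41 to 116 CPM in pool 13, with a median of 75.1 CPM. These 2 genes could not be ordered, since their quartiles overlapped and *H2AJ* was the higher in 17 of 27 pools.

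*MACROH2A1*, on chromosome 7 from 46800652 to 46882553, ranged from 18.7 CPM in pool 28 to 53.8 CPM in pool 5, with a median of 33.2 CPM. *H2AX*, on chromosome 15 from 29674359 to 29675675, ranged from 15.0 CPM in pool 9 to 59.1 CPM in pool 31, with a median of 26.4 CPM. Pool 31 stood apart in *H2AX*, as the next highest value was 37.0 CPM. All values of *H2AX* given here cover mainly its polyadenylated mRNA. The quartiles of *MACROH2A1* and *H2AX* overlapped, and *MACROH2A1* was the higher in 20 of 27 pools.

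*MACROH2A2*, on chromosome 28 from 26293095 to 26345875, was the least abundant and the most variable variant. It ranged from 2.78 CPM in pool 14 to 16.5 CPM in pool 28, a 5.94-fold span, with a median of 8.21 CPM. Its smallest count in any pool was 44. Its span overlaps *AIFM2*, which was more abundant (38.3 to 125 CPM), and how reads shared by overlapping genes were assigned is not given in the sources used here, so its CPM is uncertain. *H3-3A*, *H3-3B* and *H2AZ1* have uncertain counts in another way, because mammalian genomes hold near-identical processed copies of such genes and reads that map to several places could have been lost or split.

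Counting error was small beside the differences between pools. The lowest count of any variant other than *MACROH2A2* was 197, and the chi-square per degree of freedom of the 27 counts, set against counting error only, was between 29.6 for *MACROH2A2* and 1027 for *H2AZ1*. Pool 31 had the lowest CPM of *H2AZ1*, *H3-3B* and *H3-3A* and the highest of *H2AX*, and it was among the 5 lowest pools for 6 of the 9 genes. Its total count was 30679078, well above the median. Pools 9 and 32 were each among the 5 highest for 5 genes.

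Shares within a pair of related genes need no scaling between pools. *H3-3A* contributed between 33.2% (pool 21) and 52.9% (pool 28) of the H3.3 counts, with a median of 44.3%, and exceeded 50% in 1 pool only. *H2AZ1* contributed between 66.2% (pool 35) and 79.8% (pool 21) of the H2A.Z counts, with a median of 72.7%. *MACROH2A1* contributed between 53.1% (pool 28) and 93.6% (pool 14) of the macroH2A counts, with a median of 80.1%. The same member of each pair therefore led in at least 26 of 27 pools, while the macroH2A share was spread most widely.

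**Figure D2:**
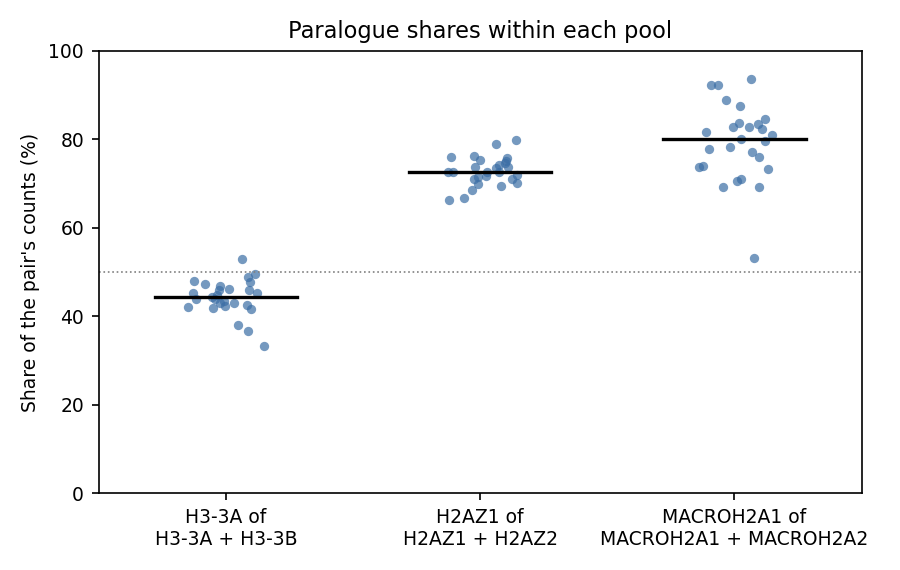
Share of counts contributed by the gene named first in each pair, in percent, with 1 point per pool (27 per pair), a bar at the median and a dotted line at 50%. The H2A.Z and macroH2A shares lie above 50% in all pools, whereas that of *H3-3A* lies below 50% in 26 pools.

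Whether the variants rose and fell together across pools was examined with Spearman's rho of CPM, with two-sided p from 100000 permutations of the pools, adjusted over all retained genes for each variant taken as a reference. The strongest relation joined variants of different families. *H3-3A* and *H2AZ2* had a rho of 0.819 (p = 1.0e-05, the smallest value these permutations can give, adjusted p = 0.0205) and a Pearson's r of log2(CPM + 1) of 0.844 (p = 1.0e-05, adjusted p = 0.0123). Each was the gene most correlated with the other among 12309. With *H2AZ2* as the reference the adjusted p was 0.0615 for rho and 0.0308 for r. Without the 2 pools farthest from the median of *H3-3A* r was 0.830, and leaving out each pool in turn kept rho between 0.798 and 0.852. Against *H3-3A*, 0.195% of retained genes passed by rho and 1.16% by r, and against *H2AZ2* 0% and 0.252%. It was the only 1 of 72 ordered pairs of variants that passed by rho.

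The 2 genes for H3.3 were less closely related to each other. Their rho was 0.523 (p = 0.00594, adjusted p = 0.177) and r was 0.564 (p = 0.00237, adjusted p = 0.0834), and r fell to 0.385 without the 2 farthest pools. With *H3-3B* as the reference, for which 4.57% of genes passed by rho and 7.99% by r, the adjusted p was 0.0738 for rho and 0.0383 for r. For *H2AZ1* and *H2AZ2*, rho was 0.392 (p = 0.0445, adjusted p = 0.233) and r was 0.419 (p = 0.0294, adjusted p = 0.157), with r at 0.418 without the 2 farthest pools. On CPM scaled by TMM, edgeR's correction for differences in composition between libraries, this rho was 0.606 (adjusted p = 0.0459, with 2.94% of genes passing), so the call depended on scaling. *MACROH2A1* and *MACROH2A2* had a rho of -0.069 (p = 0.732, adjusted p = 0.966) and an r of -0.149 (p = 0.459, adjusted p = 0.868), which was 0.006 without the 2 farthest pools.

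*H2AX* went against *H2AZ1*. Their rho was -0.497 (p = 0.00934, adjusted p = 0.107 with *H2AZ1* as the reference) and r was -0.613 (p = 8.0e-04, adjusted p = 0.0227), where 3.77% of retained genes passed by rho and 7.23% by r. With *H2AX* as the reference the adjusted p of r was 0.0189, where 9.78% passed by r. Without the 2 pools farthest from the median of *H2AZ1*, r was -0.412, and on CPM scaled by TMM rho was -0.367 (adjusted p = 0.303), so this relation rested partly on the choice of scale and on the extreme pools, among them pool 31 with the lowest *H2AZ1* and the highest *H2AX*. *H3-3B* and *H2AZ1* had a rho of 0.505 (p = 0.00819, adjusted p = 0.101) and an r of 0.577 (p = 0.00197, adjusted p = 0.0349).

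**Figure D3:**
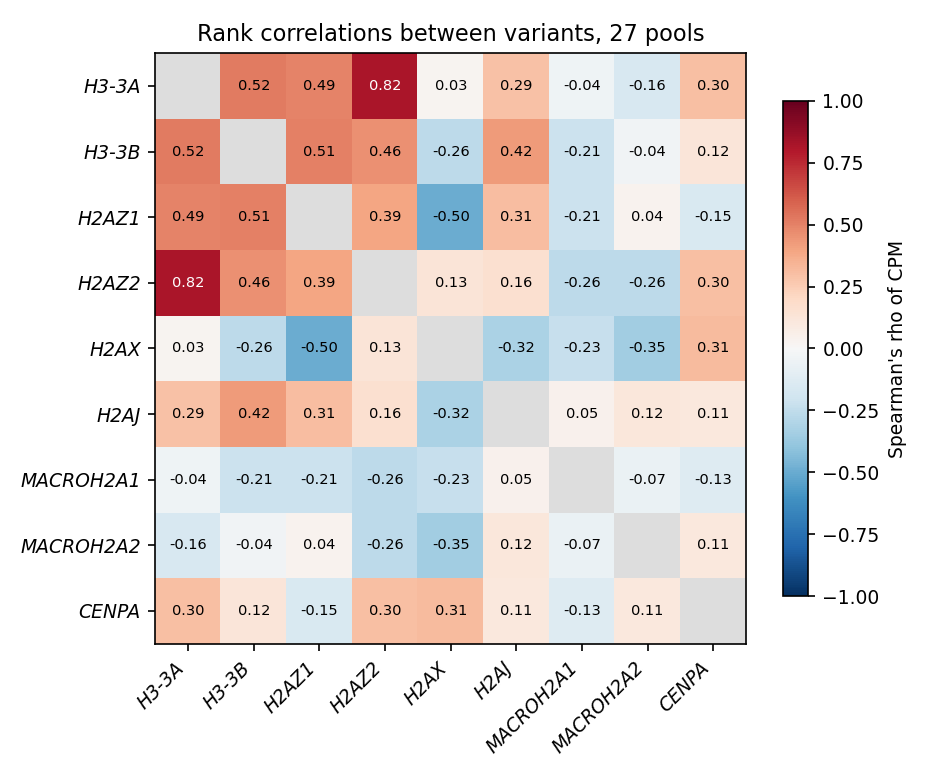
Spearman's rho of CPM over 27 pools for each pair of histone variants, from -1 (blue) to 1 (red). The H3.3 and H2A.Z genes form a block of positive values from 0.39 to 0.82, and *H2AX* against *H2AZ1*, at -0.50, is the most negative cell.

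The variants were next set against measures of each pool. Scores were the mean of log2(CPM + 1) over the retained genes of a marker list, each scaled to an SD of 1, and the slope of each gene on a score was tested with edgeR's quasi-likelihood test over all 12310 retained genes with Benjamini-Hochberg adjustment. The trophectoderm, the outer epithelium that forms the placenta, was scored from 10 genes (*CDX2*, *GATA2*, *GATA3*, *TFAP2A*, *TFAP2C*, *KRT8*, *KRT18*, *KRT19*, *DAB2* and *ELF3*). Of the 9 variants, 4 were lower in pools with a higher trophectoderm score and none was higher, at an adjusted p of 0.05 or less, while 3.14% of all retained genes were lower and 4.14% were higher (7.28% in all). These 4 were the genes for H3.3 and H2A.Z. Since they are also abundant, the 342 retained genes with a median of at least 500 CPM were examined. Of these, 19 (5.56%) were lower and 32 were higher, so calls in either direction were more frequent among abundant genes than among all genes.

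*H3-3B* had the steepest slope, -0.18 ± 0.04 (SE, n = 27) on the log2 scale per SD of the score, equal to -11.6% (edgeR adjusted p = 0.00740). Each SE was calculated from the slope and the F statistic of edgeR's test. The slope of *H2AZ1* was -0.15 ± 0.04, or -10.0% (edgeR adjusted p = 0.0240). *H3-3A* changed by -0.11 ± 0.03 per SD, or -7.49% (edgeR adjusted p = 0.0149), and *H2AZ2* by -0.11 ± 0.03, or -7.55% (edgeR adjusted p = 0.0216). The differences between these slopes were not tested. In values, pool 32 had the lowest trophectoderm score and held 1279 CPM of *H3-3B*, 1770 CPM of *H2AZ1*, 1084 CPM of *H3-3A* and 781 CPM of *H2AZ2*. Pool 14, with the highest score, held 1041, 1390, 741 and 460 CPM of the same genes. Pool 31, with the second highest score, held 676, 1020, 645 and 507 CPM of them.

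Rank correlations with the trophectoderm score gave the same 4 genes, against 3.99% of retained genes with a negative relation that passed by rho and 4.96% by r. For *H3-3B*, rho was -0.745 (p = 3.0e-05, adjusted p = 0.00420) and r was -0.672 (p = 1.9e-04, adjusted p = 0.00936), or -0.753 without the 2 pools farthest from the median score. For *H2AZ1*, rho was -0.711 (p = 4.0e-05, adjusted p = 0.00488) and r was -0.668 (p = 1.3e-04, adjusted p = 0.00748), or -0.714 without the 2 pools. For *H3-3A*, rho was -0.629 (p = 6.5e-04, adjusted p = 0.0212) and r was -0.709 (p = 7.0e-05, adjusted p = 0.00535), or -0.627 without them. For *H2AZ2*, rho was -0.614 (p = 8.3e-04, adjusted p = 0.0234) and r was -0.725 (p = 1.0e-05, adjusted p = 0.00176), or -0.560 without them.

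**Figure D4:**
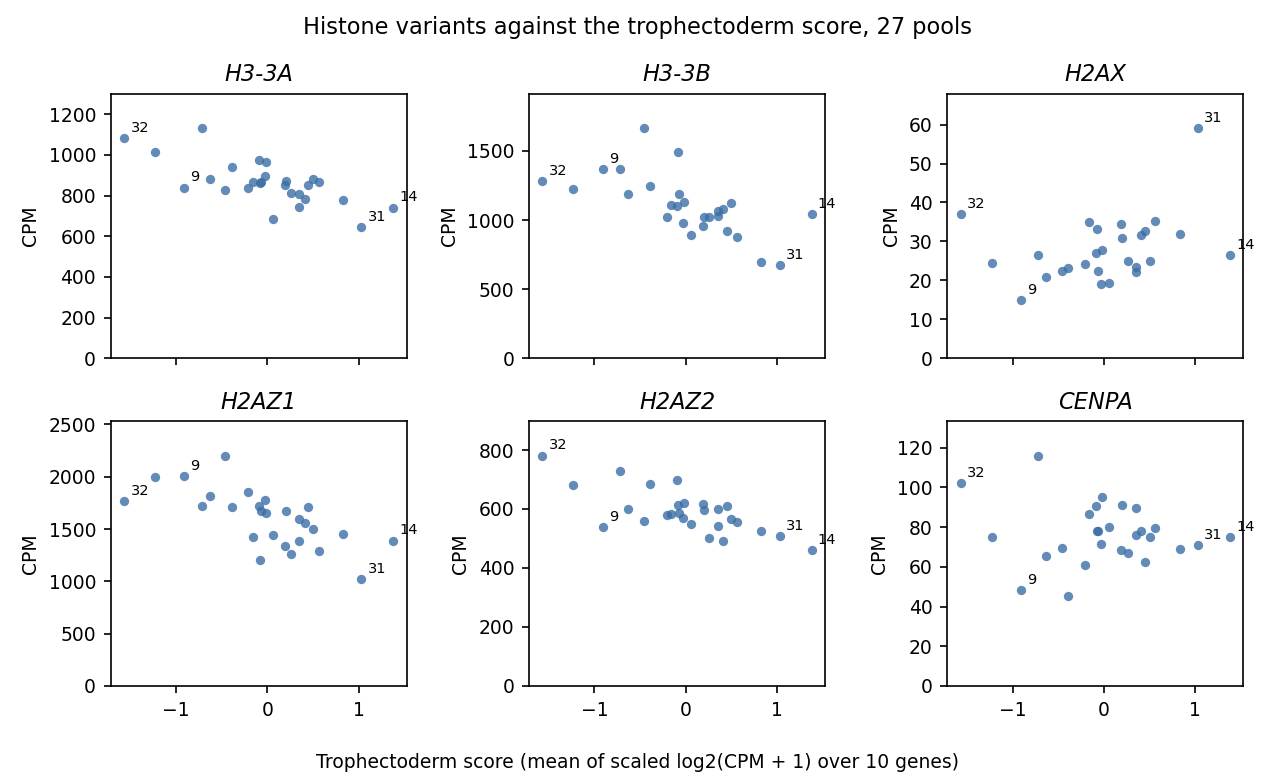
CPM of 6 histone variants against the trophectoderm score in 27 pools, 1 point per pool, with pools 9, 14, 31 and 32 numbered and every vertical axis starting at 0. *H3-3A*, *H3-3B*, *H2AZ1* and *H2AZ2* decline from pool 32 on the left to pools 14 and 31 on the right, whereas *CENPA* shows no slope and *H2AX* is highest in pool 31.

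The 10 genes that make up the score were also examined singly, as a description. *H3-3A*, *H2AZ1* and *H2AZ2* were negatively correlated with all 10 trophectoderm genes and *H3-3B* with 9, the exception being the transcription factor gene *TFAP2C* (rho of 0.242). The most negative values were -0.781 for *H3-3B* with *KRT8* and -0.780 for *H3-3A* with *KRT18*. *H2AX* had no negative value among the 10, from 0.032 with *TFAP2C* to 0.538 with *GATA2*. With the keratins left out of the score, all 4 variants remained called, with adjusted p from 0.0234 to 0.0354, against 2.46% of genes lower. With the 6 transcription factors alone, 3 passed, against 2.30% lower, and *H3-3A* did not (slope of -0.10, edgeR adjusted p = 0.0508).

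Some of these calls changed when a pool was left out, although the slopes kept their sign. *H3-3A* and *H3-3B* passed whichever pool was left out, with edgeR adjusted p of at most 0.0402 and 0.0282. *H2AZ1* did not pass without pool 31, where its slope was -0.13 (edgeR adjusted p = 0.0708). *H2AZ2* did not pass without pool 14 or pool 32, where its slope was -0.09 in each case (edgeR adjusted p = 0.0605 and 0.0758). Without pools 9 and 31, which had the lowest and the highest *H2AX*, 2 variants passed, *H3-3A* and *H2AZ2*, against 1.45% of genes lower. The slope was then -0.14 for *H3-3B* (edgeR adjusted p = 0.0517) and -0.12 for *H2AZ1* (edgeR adjusted p = 0.128). These pools were picked after seeing their values, and pool 31 also had the lowest *H3-3A*, *H3-3B* and *H2AZ1*. The calls without them therefore do not measure how steady the relations were.

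Of 9 other measures of the pools, none passed adjustment over these 9 relations in its relation to the trophectoderm score. The closest were the epiblast score (rho of -0.308, p = 0.118, adjusted p = 0.265; r of -0.459, p = 0.0165, adjusted p = 0.0629; r of -0.390 without the 2 farthest pools), the G2/M score (rho of -0.437, p = 0.0241, adjusted p = 0.175; r of -0.471, p = 0.0128, adjusted p = 0.0629; r of -0.522 without those pools) and the summed leukocyte markers (rho of -0.401, p = 0.0389, adjusted p = 0.175; r of -0.441, p = 0.0210, adjusted p = 0.0629; r of -0.343 without those pools). Leukocyte markers were taken as log2(CPM + 1) of their sum, not as a mean of scaled genes. The summed leukocyte markers had between 11.8 and 54.9 CPM per pool and the summed G2/M markers between 2271 and 3995 CPM, led by *UBE2C* (452 CPM) and *CCNB1* (377 CPM). The part of any of these in the slopes of the variants was not tested. With the total count of the pool as a further covariate 4 variants passed, against 2.87% of retained genes lower. There were also 4 with RLE normalization (3.27% of genes lower), with all counted genes (3.05%) and with DESeq2 (5.29%).

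The remaining 5 variants did not pass on the trophectoderm score. *H2AX* had the largest slope among them, 0.16 ± 0.07 on the log2 scale per SD, or 11.4% (edgeR adjusted p = 0.178). It passed without pool 32 (edgeR adjusted p = 0.0274), where 8.41% of all retained genes passed. Without pools 9 and 31 the slope of *H2AX* was 0.03 per SD. Those pools hold its lowest and highest values, so leaving them out cannot show how steady the slope was. Slopes of *H2AJ*, *CENPA*, *MACROH2A1* and *MACROH2A2* were between -0.05 and 0.05, with edgeR adjusted p from 0.511 to 0.923.

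The variants were also tested on the epiblast, S phase and G2/M scores and on the total count, and none passed by edgeR. On the epiblast score, for the cells that form the fetus, 0.374% of retained genes passed. *H3-3A* changed by 0.09 ± 0.03 per SD, or 6.67% (edgeR adjusted p = 0.160), and its rho with the score was 0.723 (p = 4.0e-05, adjusted p = 0.0671; r = 0.692, p = 1.2e-04, adjusted p = 0.0533; r = 0.654 without the 2 farthest pools), the 5th highest of all genes. With a pseudocount of 0.1 r passed (adjusted p = 0.0462), and on CPM scaled by TMM rho did not (adjusted p = 0.271). *MACROH2A2* had a slope of -0.28 ± 0.11, or -17.9% (edgeR adjusted p = 0.221). On the S phase score, led by *RRM2* (522 CPM) and *PCNA* (403 CPM), 2.71% of genes passed, and *CENPA* had the largest slope of the 9 variants, 0.12 ± 0.05 or 8.68% (edgeR adjusted p = 0.203). On the G2/M score, on which 2.40% passed, the largest was that of *H2AX*, -0.16 ± 0.07 or -10.7% (edgeR adjusted p = 0.259). *CENPA*, whose protein is made and deposited around mitosis in dividing cells, changed by 0.08 ± 0.05 on it (edgeR adjusted p = 0.447). On the total count of the pool, 0 of 12310 genes passed with edgeR or with DESeq2. With edgeR, 340 had an unadjusted p of 0.05 or less, fewer than expected if no gene were related to the total count. The slope of *MACROH2A2* on it was the largest, -0.13 ± 0.12 (edgeR adjusted p = 1.000).

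**Figure D5:**
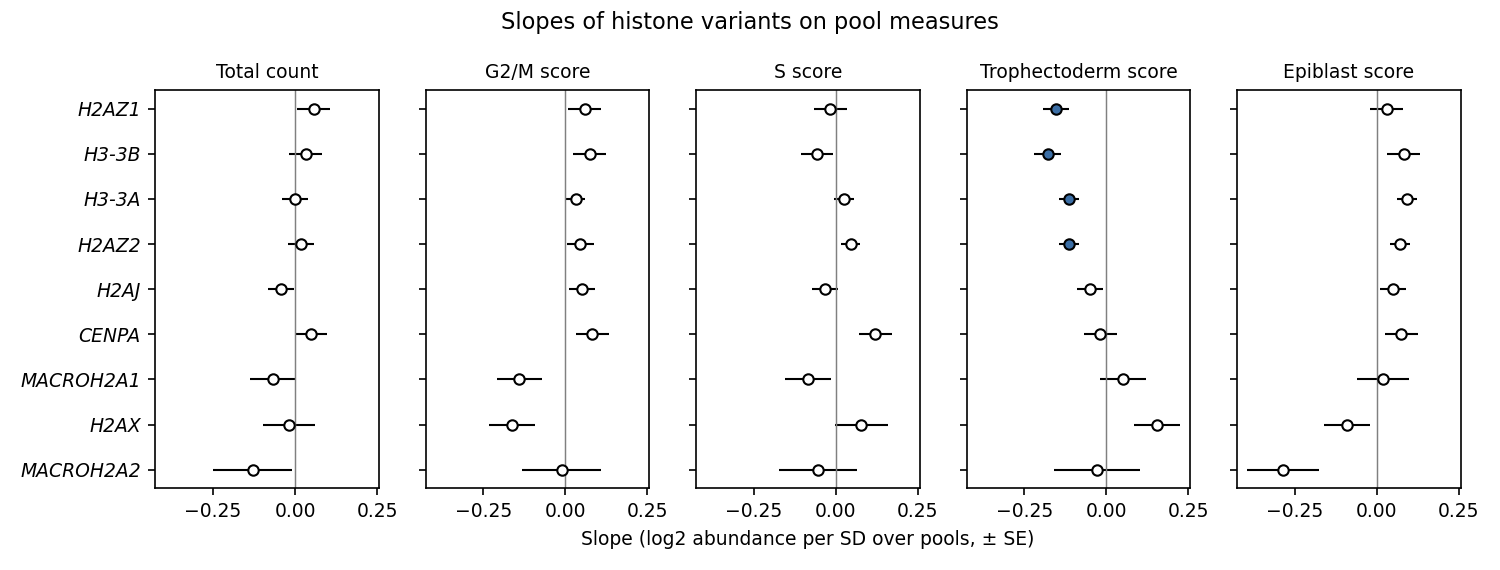
Slope of each histone variant on 5 measures of the pool, in log2 abundance per SD of the measure over 27 pools. Bars are ± 1 SE, calculated from the slope and the F statistic of edgeR's test. Filled points passed an adjusted p of 0.05, which were the 4 genes for H3.3 and H2A.Z on the trophectoderm score, and all other points are open.

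The chaperones and remodellers that handle a variant were tested for a relation with it across pools. Among 7 genes for H3.3 deposition, whose most abundant were *ASF1A* (128 CPM) and *ATRX* (107 CPM), *ASF1A*, a chaperone that passes H3 and H4 to the deposition complexes, was related to *H3-3B* (rho of 0.605, p = 0.00119, adjusted p = 0.0362; r of 0.569, p = 0.00188, adjusted p = 0.0324; r of 0.539 without the 2 farthest pools). None of the 7 passed with *H3-3A*, for which only 0.195% of retained genes passed by rho. *HIRA*, the subunit that names the complex for H3.3 at active genes, had a median of only 0.94 CPM, and *DAXX*, the chaperone for H3.3 at repeats, 7.93 CPM.

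Of 13 genes for H2A.Z exchange, *YEATS4*, a subunit shared by the SRCAP and TIP60 complexes that insert H2A.Z, was related to *H2AZ1* (rho of 0.654, p = 4.1e-04, adjusted p = 0.0241; r of 0.652, p = 2.0e-04, adjusted p = 0.0128; r of 0.562 without the 2 farthest pools). It had a median of 103 CPM, second to *ANP32E* (108 CPM), a chaperone that removes H2A.Z. *ACTR6* passed with *H2AZ1* by r (0.570, adjusted p = 0.0354, where 7.23% of retained genes passed) but not by rho (0.557, adjusted p = 0.0653). None of the 13 passed with *H2AZ2*, for which 0% of retained genes passed by rho. The highest rho with *H2AZ2* was that of *ACTR6* (0.570, adjusted p = 0.226).

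With *CENPA*, none passed of the 9 retained genes (of 10) for its deposition and binding, the most abundant of which were *CENPI* (117 CPM) and *MIS18A* (106 CPM). With *HJURP*, its own chaperone, rho was 0.334 (p = 0.0907, adjusted p = 0.830) and r was 0.418 (p = 0.0315, adjusted p = 0.491), or 0.420 without the 2 farthest pools. Again 0% of retained genes passed for *CENPA*. Among 9 retained of 10 genes of H2AX signalling, led by *RNF8* (153 CPM) and *PPP4C* (106 CPM), *PPP4C* was related to *H2AX* (rho of 0.711, p = 1.0e-04, adjusted p = 0.0199; r of 0.753, p = 2.0e-05, adjusted p = 0.00367; r of 0.669 without the 2 farthest pools). *PPP4C* encodes the catalytic subunit of a phosphatase that removes the H2AX phosphate. For *H2AX*, 3.02% of retained genes passed. The share with a positive relation that passed was 2.95% for *H3-3B*, 1.49% for *H2AZ1* and 1.98% for *H2AX*, against 1 of 7, 1 of 13 and 1 of 9 genes in these lists.

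The genes most like each variant across the 27 pools were found by rho among 12309 retained genes. For *H3-3B* they were *DCTN6* (0.873), *ARL14EP* (0.859) and *RWDD4* (0.828), and for *H2AZ1* they were *RBM7* (0.797), *BCCIP* (0.794) and *MRPL3* (0.789). *H2AX* was most like *POLD2* (0.832), a subunit of the replicative DNA polymerase delta, *CAPNS1* (0.815) and *PPM1G* (0.790). *H3-3A* followed *H2AZ2* with *CRYM* (0.794) and *GOLT1A* (0.745), whose medians were only 2.65 and 3.23 CPM and whose rho on CPM scaled by TMM was lower, at 0.589 and 0.547. *H2AZ2* had *RNF7* (0.780) and *PAIP2* (0.752) after *H3-3A*. No gene passed adjustment by rho with *H2AZ2* or with the 4 remaining variants. The nearest to the latter were *SCGN* (0.730), *FRK* (0.725) and *MTFR2* (0.709) for *H2AJ*, *MAP7D1* (0.720), *TCIRG1* (0.711) and *KAT14* (0.690) for *MACROH2A1*, *PPA1* (0.736), *LEF1* (0.719) and *SYPL1* (0.718) for *MACROH2A2*, and *RCL1* (0.735), *MAP1B* (0.708) and *PAFAH1B2* (0.698) for *CENPA*.

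Replication-dependent histone genes were detected at low levels in the same poly(A)-primed libraries. Of 68 such genes in the table, 31 were retained. Summed, they reached 164 to 1347 CPM (median 327), less than the 9 variants in every pool. The most abundant was *H2BC15*, an H2B gene (median 57.4 CPM, range 24.7 to 637), followed by the linker histone gene *H1-2* (45.8 CPM), the H2B gene *H2BC21* (24.0 CPM) and the linker histone genes *H1-4* (18.0 CPM) and *H1-3* (13.5 CPM). Pool 32 stood apart with 1347 CPM, of which *H2BC15* gave 637 CPM or 47.3%, and the next pool held 623 CPM. *SLBP*, which binds the stem-loop of these mRNAs, had a median of 162 CPM, and *NASP*, a histone chaperone, 345 CPM. Because few of these mRNAs carry a poly(A) tail, their CPM does not give their abundance relative to the variants.

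Of the other variants listed, those reported here were linker histone genes. They were *H1-10* (median 10.8 CPM, range 4.75 to 35.9) and the oocyte linker histone gene *H1-8* (8.70 CPM, 2.00 to 35.0), with medians below those of the 8 more abundant variants described above.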

How the data were processed

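RNA-sequencing reads were counted on genes in 27 pools of 2 bovine blastocysts. According to the labels and the study's methods, the SMART-Seq v4 3′ DE Kit was used to amplify cDNA, fastp to trim the forward reads, STAR to map them to ARS-UCD2.0 and featureCounts to count them. The authors deposited raw counts of 32637 genes without normalization. The annotation release, tool versions and handling of reads that map to several places are not given in the sources used here.

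CPM was calculated from column totals (10517606 to 44253564 counts). TMM factors were between 0.892 and 1.08. A gene was retained at 1 CPM or more in 12 pools. Slopes were tested with edgeR 4.0.16, with DESeq2 1.42.0 as an alternative (R 4.3.3), and correlations with 100000 permutations of the pools (Python 3.11.15, numpy 2.4.6, scipy 1.17.1). Adjustment was over retained genes, apart from the following. The fit of all counted genes was adjusted over 24638 genes, and DESeq2 on the trophectoderm score over 12071. Relations of the trophectoderm score to 9 other measures of the pools were adjusted over those 9. The scripts were tested on simulated data. For edgeR these had steeper slopes than those reported here and no IVF replicates. Power and false calls in data like the present ones were not assessed. The labels do not say which pools came from separate IVF replicates, so p-values measure the spread between these pools. The 3-count limits cover counting error only. Gene positions were matched by symbol to RefSeq for 9 of 9 variants.

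The members and lists were chosen with earlier results of these data known. Genes named were the 9 variants, the 3 genes most correlated with each, related chaperone genes, the 5 most abundant replication-dependent histones, retained other variants and the 2 most abundant genes of each marker list. *FOXL2*, *HIRA*, *DAXX*, *HJURP*, *ACTR6*, the overlapping genes and single trophectoderm genes were named in addition, after their values were seen. A retained gene of the list of other variants is not reported here. IVF replicate was not assigned, so no relation was recomputed within replicates. Alternatives covered scaling, filter, pseudocount, test, covariate and left-out pools.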

Additional observations from a re-analysis of the deposited data

How the results depend on the processing

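Of the alternatives run, most left the call as it was. A change of sign was counted as no change where the slope was not called in either setting. The slope of *MACROH2A2* on the G2/M score, for example, was -0.01, and 0.02 with the total count as covariate. The number of ordered pairs of variants called, 1 by Spearman on CPM, was 4 on CPM scaled by TMM and 7 by Pearson on log2(CPM + 1) or log2(CPM + 0.1). With *H2AZ1* as the reference, the relations with *H2AZ2* (rho of 0.606) and *H3-3A* (rho of 0.671, adjusted p = 0.0203) passed only on CPM scaled by TMM. By Pearson on log2(CPM + 1), between 0.252% and 9.78% of all genes passed with the variants concerned. By Spearman on CPM scaled by TMM, the share was between 0.0487% and 2.94%. The number of H2A.Z exchange genes related to *H2AZ1* was 2 by Pearson instead of 1. Alternatives chosen after seeing the data were the trophectoderm score without keratins, that of transcription factors only, and the left-out pools. The number of variants related to the trophectoderm score was 4. It was between 3 and 4 when pools were left out in turn and 2 without pools 9 and 31. Of all retained genes, 7.28% passed with every pool, 4.03% to 8.41% with a pool left out and 3.49% without pools 9 and 31. Without pool 32, *H2AZ2* no longer passed, and *H2AX* passed in the opposite direction. The cause was not tested in any of these. The number of variants was 4 with RLE normalization, all counted genes, DESeq2, Spearman and the total count as covariate. Leaving out each pool kept the median shares between 44.1% and 44.6% for *H3-3A*, at 72.7% for *H2AZ1* and between 79.8% and 80.5% for *MACROH2A1*. Abundance per kb of exons was not run, since exon lengths were not used here. No paired analysis was possible because the labels give no groups. Depth limited *MACROH2A2* most, with as few as 44 counts.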
